A study of Arabidopsis thaliana with 14 samples.

Results

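Transposable elements that gave at least 30 poly(A)+ reads in Arabidopsis flower buds, counted in whole reads in every library, are described here in wild type and in the mutant aly1-2. An element was a member if its reads over the 6 total RNA libraries summed to 30 or more, if the 3 wild-type libraries together held at least 1 read, and if all 6 values were whole numbers (within 1e-09). Of 31189 elements listed, 1169 reached the sum, and 577 met all conditions. The others at that sum were 588 elements with a value that was not whole and 4 elements with no wild-type read. The members were thus chosen by their read counts in these same libraries, so the number of reads itself is a description. The condition on wild-type reads removes elements read only in the mutant and removes none read only in wild type, so the balance of higher against lower members is partly fixed by the choice.

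Both genotypes were in the Columbia background, and the tissue was the inflorescence with immature flower buds of stages 1 to 12. The wild-type group was Columbia without a mutation named in the labels, and the other group carried the allele aly1-2. Each genotype had 3 total RNA libraries; the study's nuclear and cytoplasmic libraries were not used here. RNA of cell extracts was enriched for poly(A)+ RNA, made into strand-keeping libraries and sequenced, per the labels' protocols. Whether the replicates were grown or collected separately is not stated, and p-values below therefore cover the spread between these libraries only, which may be technical. In whole buds, fewer cells of a type and less RNA per cell cannot be told apart.

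Transposable elements are DNA segments that can copy or move themselves, and most are kept silent in plants by DNA methylation and repressive histone marks. In Arabidopsis, small RNAs and the plant-specific RNA polymerases IV and V guide methylation to many of them, while maintenance enzymes copy the mark at each cell division. ALY1 encodes a nuclear RNA-binding adaptor of mRNA export. A read counted to an element can come from its own promoter or from a gene transcript that runs through it. Element coordinates, families and lengths were not used here, so members carry only their identifiers, and read numbers are not compared per length between elements. In these identifiers the first digit is the chromosome, and the last digits number the elements along it.

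The members held 231198 reads in all, between 32811 and 36472 in each wild-type library and between 39857 and 47709 in each mutant library. Gene counts came to 8762956 to 9720479 per wild-type library and 10236357 to 12736257 per mutant library. Values below are in CPM, element reads scaled so that every library has the same total of gene counts, with TMM factors from the genes. The check of genotype held in every library: ALY1 transcripts measured 105, 112 and 119 CPM in the 3 wild-type libraries but 14.02, 20.1 and 17.9 CPM in the 3 mutant ones (edgeR log2 fold change −2.69, SE 0.15, adjusted p = 0.000319). The 9 flower bud markers summed to 829.5 to 962 CPM in wild type and 1047 to 1088 CPM in the mutant, and 3 root markers to at most 2.23 CPM in any library. Mutant replicates 1 and 3 lay on opposite sides of the wild-type range in pollen markers, and replicate 1 also stood apart in leaf markers. The 5 mature pollen markers summed to 949, 1848 and 3857 CPM in mutant replicates 1 to 3. In wild type they summed to 1488 to 2269 CPM. The 5 leaf photosynthesis markers summed to 12402 CPM in mutant replicate 1, against 8011 to 9347 CPM in the other 5 libraries. The part of these differences in the results was not tested, and counts are given with and without mutant replicate 1.

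Over all 577 members together, the summed level differed little between the genotypes, and their libraries overlapped. The members summed to 3665, 3507 and 3741 CPM in wild-type replicates 1 to 3 and to 3717, 3811 and 3799.8 CPM in the mutant ones. Mutant replicate 1 lay below wild-type replicate 3. The mean was 3637 ± 119 CPM for wild type (SD, n = 3) and 3776 ± 51.0 CPM for the mutant (SD, n = 3), a difference of 138 CPM. Members took 26.1% ± 0.641 of all element reads (SD, n = 3) in the wild-type libraries, and 25% ± 1.44 (SD, n = 3) in the mutant libraries.

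A few members carried a large share of these reads. The sum per member ran from 30 to 32214 reads with a median of 110, and 34 members had over 1000 reads. The 2 most read members held 27.7% of the member reads and the 10 most read held 42.7%. Reads were seen in all 6 libraries for 555 members, in 5 libraries for 18 and in fewer for 4. At least 15 reads in each genotype were found for 509 members, while 56 had under 15 in wild type and 12 had under 15 in the mutant. No member was without a mutant read.

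None of the 10 most read members was called. AT5TE78780, on chromosome 5, measured 474, 518 and 528 CPM in the wild-type libraries against 497, 594 and 491 CPM in the mutant ones (log2 fold change 0.06, SE 0.12, adjusted p = 0.891 by edgeR). AT3TE36450, on chromosome 3, measured 557, 480 and 539 CPM in the wild-type libraries against 481, 546 and 464 CPM in the mutant ones (−0.08, SE 0.12, adjusted p = 0.845). In both elements the genotypes overlapped. The next 8 were AT3TE29990, AT2TE23870, AT4TE43840, AT5TE81110, AT1TE64710, AT5TE19520, AT1TE69295 and AT1TE35415, with log2 fold changes from −0.48 to 0.29 and no call. Of these 10, AT5TE81110 alone had groups that did not overlap, at 44.2 to 53.9 CPM in wild type and 54.2 to 67.3 CPM in aly1-2 (0.29, SE 0.15, adjusted p = 0.365). AT3TE29990 had the lowest value of the 10, with 151, 190 and 200 CPM in the wild-type libraries against 167, 109 and 112 CPM in the mutant ones (−0.48, SE 0.19, adjusted p = 0.192). Its mutant replicate 1 lay inside the wild-type range, and without that library its log2 fold change was −0.71 (SE 0.16, adjusted p = 0.0069 by edgeR), a call.

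**Figure D1:**
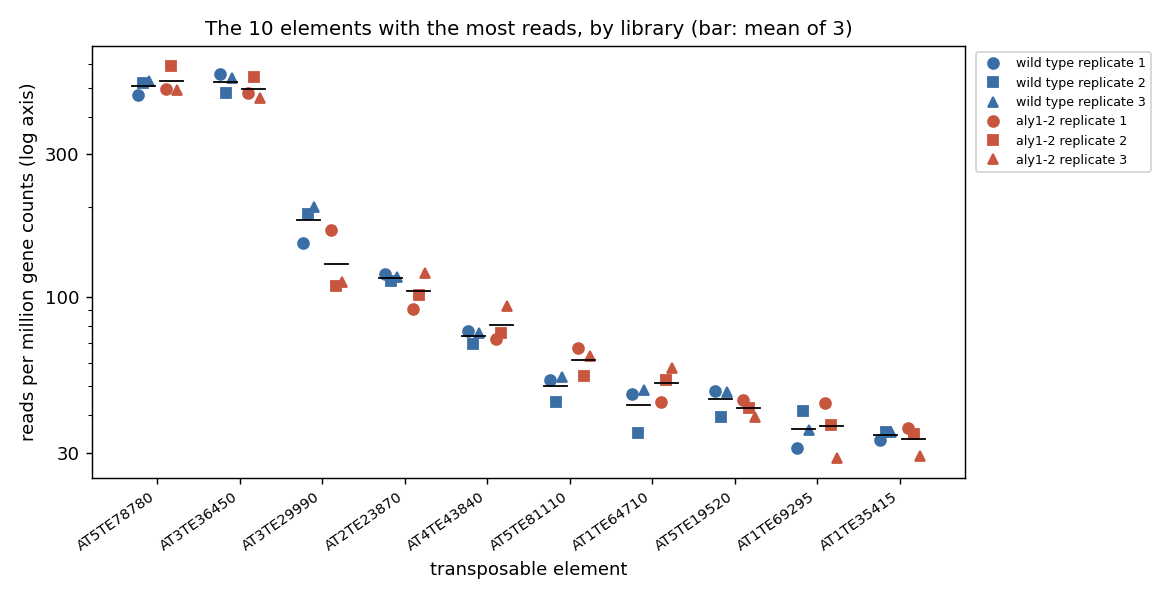
CPM (vertical, log axis) of the 10 members with the most reads, one symbol per library and replicate number, with the mean of 3 libraries as a bar. Wild type and aly1-2 lie close together for each element, and AT3TE29990 shows mutant replicates 2 and 3, at 109 and 112 CPM, below the other 4 libraries.

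The comparison of genotypes asked which of these elements differ in total bud RNA when ALY1 is lost. All 1169 elements at the sum were fitted together with edgeR's quasi-likelihood test, with library sizes from the genes and p-values adjusted over all of them. At an adjusted p under 0.05, 9 members rose and 0 fell, 1.56% of the members, where 6.76% of all fitted elements were called. In the fit as a whole 70 elements rose (5.99%) and 9 fell (0.77%), so the members' shares were below the background in both directions. Of the 592 fitted elements that were no members, 61 rose and 9 fell, 11.8% together; the difference from the members was not tested. At an unadjusted p under 0.05, 55 members were higher and 22 lower, against 13.9% and 4.11% of all fitted elements, which came to 9.53% and 3.81% of the members. By DESeq2 11 members were higher (1.91%) and 1 was lower (0.173%), where the background by that tool was 6.33% higher and 0.684% lower. Groups did not overlap for 72 members with higher mutant values (12.5%, background 15.8%) and for 33 with lower ones (5.72%, background 5.73%). All these counts include members with under 15 reads in a genotype, which reached the sum only through the other genotype. The counts are therefore partly fixed by the choice.

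Most estimates lay near the wild-type level. The median log2 fold change of the 577 was 0.12, the middle 50% ran from −0.15 to 0.46, and 381 members (66%) lay within 0.5 of 0. Over all 1169 fitted elements the median was 0.14 and 63.5% lay within 0.5 of 0. Over the 588 with a value that was not whole the median was 0.18. A log2 fold change above 1 was estimated for 53 members (9.19%) and one below −1 for 19 (3.29%), against 15.3% and 3.57% of the elements with a value that was not whole. Over all fitted elements these shares were 12.6% and 3.42%. Values above 0 made up 62.7% of the members, against a background of 63%. With the scaling taken from the elements instead of the genes, the members' median moved to 0.00, a shift of the whole distribution that left 9 members called higher and 3 lower.

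**Figure D2:**
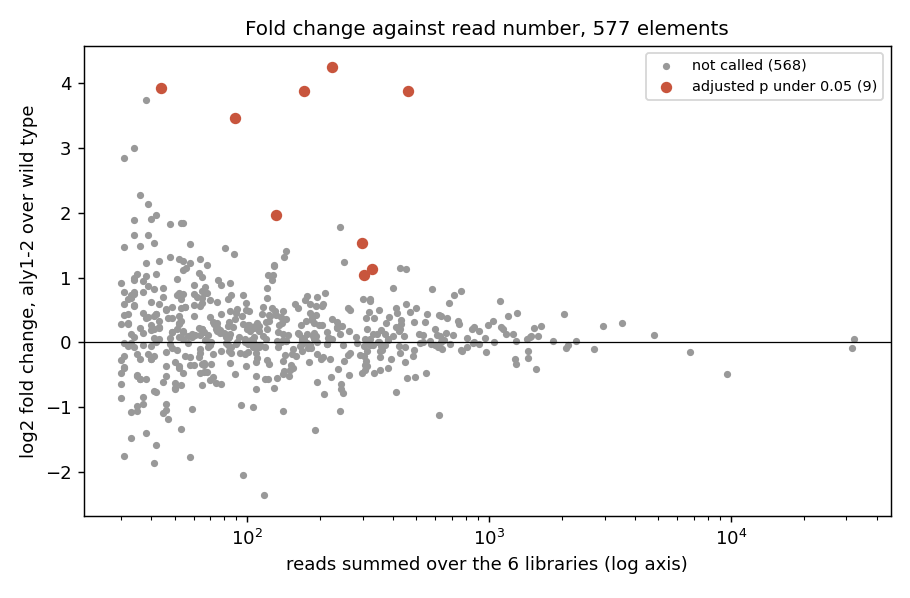
Log2 fold change of aly1-2 over wild type (vertical) against the reads summed over the 6 libraries (horizontal, log axis) for the 577 members, with the 9 called members in red. The red points lie between 1.04 and 4.24, and the spread is widest at few reads and narrowest at over 300.

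Members with few reads had the widest spread of fold changes. Among the 170 members with 30 to 60 reads, 44.1% lay within 0.5 of 0 and the median coefficient of variation in wild type was 44.8%. Between these extremes the share within 0.5 was 70.5% for the 132 members with 61 to 120 reads and 68.2% for the 129 with over 120 and up to 300, so it did not increase at every step. Among the 146 members with over 300 reads it was 85.6%, with a coefficient of variation of 14.3%. The threshold of 30 thus cut through elements whose libraries differed widely. Just inside it lay AT1TE10600 (2, 3 and 4 wild-type and 9, 5 and 7 mutant reads), AT1TE42705 (7, 5, 3 and 5, 1, 9) and AT1TE88535 (11, 3, 4 and 6, 3, 3), each with 30 reads. Just outside lay AT1TE77940 (3, 5, 4 and 6, 9, 2), AT1TE83580 (2, 5, 3 and 4, 12, 3) and AT2TE50695 (4, 7, 4 and 8, 1, 5), each with 29.

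Of the 9 members that rose, the 5 with the highest log2 fold changes (3.46 to 4.24) had 2 to 25 wild-type reads each. In 4 of the 9, AT3TE45330, AT2TE82000, AT3TE57715 and AT5TE47755, wild type held under 15 reads, so that these elements reached the sum of 30 only through their mutant reads. They had to differ to be members, and their calls and fold changes are a description. AT3TE45330, on chromosome 3, had 3, 5 and 1 reads in wild-type replicates 1 to 3 and 103, 67 and 46 reads in the mutant ones. It rose from 0.321 ± 0.211 CPM (SD, n = 3) to 6.23 ± 1.88 CPM (SD, n = 3), with a log2 fold change of 4.24 (SE 0.46; edgeR, adjusted p = 0.000434), an estimated 18.9-fold. Every mutant library lay far above every wild-type one. AT2TE82000, on chromosome 2, had 0, 4 and 5 wild-type reads and 52, 57 and 53 mutant reads. It rose from 0.311 ± 0.273 CPM (SD, n = 3) to 4.81 ± 0.706 CPM (SD, n = 3), with a log2 fold change of 3.87 (SE 0.53; edgeR, adjusted p = 0.00161). Its 3 mutant libraries lay close together. AT3TE57715, on chromosome 3, had 1, 2 and 3 wild-type reads and 27, 20 and 36 mutant reads, a rise from 0.21 ± 0.098 CPM (SD, n = 3) to 2.45 ± 0.778 CPM (SD, n = 3), with a log2 fold change of 3.46 (SE 0.51; edgeR, adjusted p = 0.0023).

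The remaining 2 of these 5 were next to each other in the list of chromosome 5 elements. AT5TE47750 had 3, 10 and 12 wild-type reads and 108, 120 and 209 mutant reads, the most mutant reads of the 9. It rose from 0.871 ± 0.473 CPM (SD, n = 3) to 13.1 ± 5.68 CPM (SD, n = 3), with a log2 fold change of 3.87 (SE 0.44; edgeR, adjusted p = 0.000486). The neighbouring AT5TE47755 had 0, 2 and 0 wild-type reads and 13, 16 and 13 mutant reads. The ratio of its mutant to its wild-type reads, after library scaling, was 17.4 (95% counting interval 4.53 to 149, exact binomial; counting error only) and its log2 fold change 3.92 (SE 0.83, adjusted p = 0.0159 by edgeR). Its call was lost when wild-type replicate 1, wild-type replicate 3 or mutant replicate 2 was left out (edgeR, adjusted p = 0.0686, 0.0798 and 0.069). Of the 8 listed elements nearest to AT5TE47750, 7 had no read in any library and the other was AT5TE47755. Neighbouring elements can be read by 1 transcript, so these need not be independent.

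The other 4 members that rose had log2 fold changes from 1.04 to 1.97, on 23 to 90 wild-type reads. AT4TE32185, on chromosome 4, went from 5, 5 and 13 reads to 32, 37 and 39 reads, or 0.805 ± 0.458 CPM (SD, n = 3) to 3.22 ± 0.629 CPM (SD, n = 3), with a log2 fold change of 1.97 (SE 0.41; edgeR, adjusted p = 0.0147). AT5TE48460, on chromosome 5, went from 28, 17 and 21 to 89, 60 and 84 reads, or 2.35 ± 0.694 CPM (SD, n = 3) to 6.83 ± 1.04 CPM (SD, n = 3), with a log2 fold change of 1.54 (SE 0.28; edgeR, adjusted p = 0.00624). Neither element's genotypes overlapped. AT5TE58025, also on chromosome 5, went from 35, 31 and 24 to 83, 64 and 91 reads (log2 fold change 1.13, SE 0.26; edgeR, adjusted p = 0.0237). AT3TE89880 went from 24, 32 and 32 to 73, 80 and 63 reads (log2 fold change 1.04, SE 0.24; edgeR, adjusted p = 0.0259). These 2 had the smallest changes of the 9, near 2.19-fold and 2.05-fold. The calls of AT4TE32185, AT5TE58025 and AT3TE89880 were each lost in several fits that left out a library, with 2 libraries then in that genotype. Their log2 fold changes stayed positive in these fits (1.74 to 2.53, 0.956 to 1.29 and 0.891 to 1.11). The first call was lost when wild-type replicate 1, wild-type replicate 2 or mutant replicate 2 was left out (edgeR, adjusted p = 0.0774, 0.0772 and 0.0734). The second was lost in each of 4 fits that left out replicate 2 or 3 of either genotype (edgeR, adjusted p = 0.057 to 0.121). The third was lost when mutant replicate 2 or any 1 of the wild-type libraries was left out (adjusted p = 0.0726 to 0.128).

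**Figure D3:**
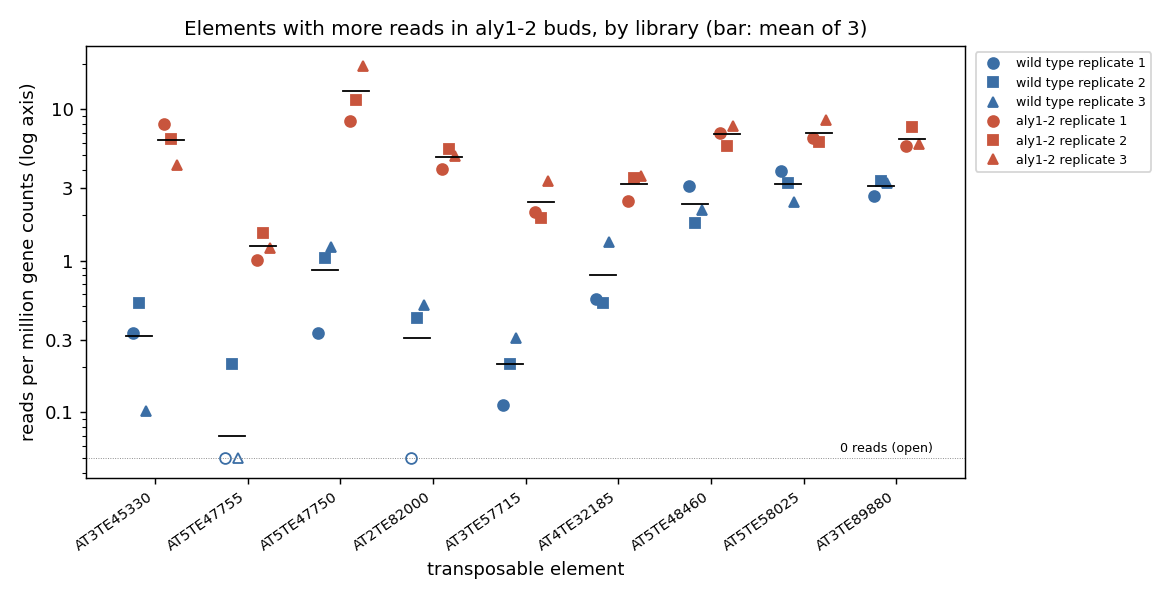
CPM (vertical, log axis) of the 9 members that rose, one symbol per library, with the mean of 3 libraries as a bar and open symbols for libraries with 0 reads. In each element the 3 aly1-2 libraries lie above the 3 wild-type libraries, with the widest gaps in AT3TE45330, AT5TE47755, AT5TE47750, AT2TE82000 and AT3TE57715.

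By chromosome, 0 of 146 members rose on chromosome 1, 1 of 95 on chromosome 2, 3 of 123 on chromosome 3, 1 of 78 on chromosome 4 and 4 of 135 on chromosome 5. These counts were too small to set one chromosome against another, and no test was made. Members made up 1.57% to 2.05% of the elements listed per chromosome. Their median log2 fold change was lowest on chromosome 5 (0.08) and highest on chromosome 3 (0.20).

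Around the members that rose, most listed elements gave few reads. Among the 4 elements before and the 4 after AT3TE45330, 6 had no read and none had over 1.5 reads in a genotype. The neighbours of AT5TE48460 and AT5TE58025 had at most 3 reads in a genotype, those of AT2TE82000 at most 5 and those of AT4TE32185 at most 7. Among these nearest listed elements, none reached the sum of 30. Next to AT3TE57715, the element AT3TE57720 had 1 wild-type and 24 mutant reads, too few for the sum of 30. AT3TE57780, also among the 8 nearest to AT3TE57715, had 147.7 wild-type and 186.33 mutant reads (log2 fold change 0.06, SE 0.41, adjusted p = 0.981 by edgeR). Next to AT3TE89880, the element AT3TE89830, with values that were not whole, rose from 4.45 to 35.83 reads (log2 fold change 2.51, SE 0.64, adjusted p = 0.0433 by edgeR). AT3TE89830 reached the sum of 30, and so the fit, only through its mutant reads, so its rise and call are a description.

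Most members stood alone in the list. With no other member directly next to them were 489, while 41 runs of 2 and 2 runs of 3 made 45 neighbouring pairs. Both members of a pair had a positive fold change in 22 pairs, both a negative one in 9 and opposite signs in 14. Of all members 62.7% had a positive one, and whether neighbours shared a sign more often than other members was not tested. Neighbours could differ widely, as in a run of 3 chosen after its values were seen. In the run AT4TE32690, AT4TE32740 and AT4TE32800, the first had 3, 5 and 2 wild-type and 8, 20 and 15 mutant reads (log2 fold change 1.83, SE 0.60, adjusted p = 0.118 by edgeR), while the other two had −0.16 (SE 0.17) and 0.02 (SE 0.16) on 970 and 1297 reads. AT4TE32690 reached the sum of 30 only through its mutant reads. Members also lay where identifiers are sparse. The median member had 28 other listed elements within 250 identifier numbers, against 60 for all listed elements and 30 for fitted elements with a value that was not whole. For the 9 that rose the median was 64, with AT2TE82000 at 3 and AT3TE45330 at 81. Whether identifier spacing follows distance on the chromosome was not tested.

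Further members had high estimates and missed the threshold in the edgeR fit of all 6 libraries. They were chosen after their values were seen. AT5TE40920 had 0, 0 and 2 wild-type and 5, 8 and 23 mutant reads, which made the mutant reads 14.9 times the wild-type ones after scaling (95% counting interval 3.84 to 128; edgeR, adjusted p = 0.0679). AT5TE81560 had 0, 2 and 1 against 7, 6 and 15 reads (ratio 7.74, interval 2.39 to 39.8; adjusted p = 0.08), and AT3TE45390 had 0, 3 and 0 against 4, 7 and 20 reads (ratio 8.57, interval 2.67 to 43.8; adjusted p = 0.156). In all 3 elements mutant replicate 3 held the most reads. AT1TE28830 had 2, 1 and 2 against 13, 6 and 12 reads (log2 fold change 2.28, SE 0.62, adjusted p = 0.0586). AT1TE42205 had 18, 11 and 19 against 32, 48 and 114 reads (1.78, SE 0.50, adjusted p = 0.0677). DESeq2 called AT5TE40920 (adjusted p = 0.0393) and AT1TE42205 (adjusted p = 0.00774). Except for AT1TE42205, these members reached the required sum of reads only through their mutant reads. Their values, and the call of AT5TE40920, are thus a description. Over all alternatives the adjusted p ran from 0.00211 to 0.225 for AT5TE40920 and from 5.76e-06 to 0.245 for AT1TE42205.

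Some members with low estimates were also chosen after their values were seen, and not by rank. None of them was called in the edgeR fit of all 6 libraries. AT5TE69640 had 4, 9 and 10 wild-type and 5, 2 and 1 mutant reads (log2 fold change −1.75, SE 0.66, adjusted p = 0.173 by edgeR). It reached the required sum of reads only through its wild-type reads, so its values are a description. AT4TE21055 had 9, 11 and 11 wild-type and 3, 2 and 5 mutant reads (log2 fold change −1.85, SE 0.53, adjusted p = 0.0683 by edgeR), and AT2TE20895 had 16, 13 and 14 against 7, 6 and 2 reads (−1.77, SE 0.49, adjusted p = 0.0622). In both, all mutant libraries lay below all wild-type ones, and both were called after filterByExpr (adjusted p = 0.0352 and 0.0358). AT4TE21055 reached the required sum of reads only through its wild-type reads, so its lack of overlap and its call are a description. AT3TE64715 had 35, 36 and 23 wild-type reads and 22, 1 and 0 mutant reads (−2.35, SE 0.81, adjusted p = 0.14). AT2TE57465 had 15, 26 and 33 against 19, 3 and 0 reads (−2.05, SE 0.76, adjusted p = 0.172). AT1TE75260 had 35, 43 and 50 against 43, 12 and 7 reads (−1.36, SE 0.48, adjusted p = 0.15). In these 3 elements mutant replicate 1 lay below the wild-type libraries in CPM, but nearer to their mean than to that of the other two mutant libraries. AT2TE77560 also had 1 high mutant library, inside a wide wild-type range, at 28, 95 and 26 reads against 90, 1 and 2 reads (−1.05, SE 1.00, adjusted p = 0.698). AT2TE69230 had 126, 145 and 123 against 131, 45 and 50 reads (−1.12, SE 0.31, adjusted p = 0.0615). AT2TE69230 was called by DESeq2 (adjusted p = 0.0154) and in 5 other alternatives, and its adjusted p over all 13 ran from 0.000137 to 0.214.

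**Figure D4:**
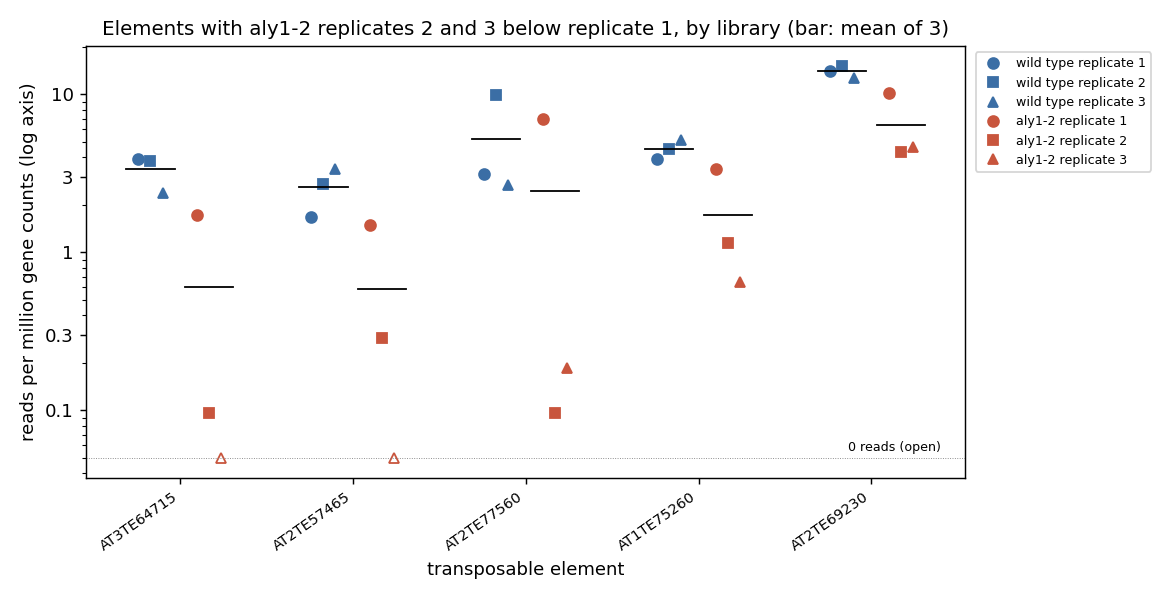
CPM (vertical, log axis) of 5 members, one symbol per library, with the mean of 3 libraries as a bar and open symbols for 0 reads. In AT3TE64715 and AT2TE77560, aly1-2 replicate 1 lies at 1.71 and 7.01 CPM, and replicates 2 and 3 lie at or below 0.186 CPM.

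Without mutant replicate 1 the calls among members went from 9 to 42, of which 28 rose and 14 fell (edgeR, adjusted p under 0.05). In that fit 11.2% of all elements rose and 2.57% fell, against 4.85% and 2.43% of the members. All 9 members called with the 6 libraries were among the 28. The 28 included AT3TE45330, AT2TE82000, AT3TE57715, AT5TE47755, AT5TE40920, AT3TE45390, AT5TE81560 and AT4TE32690, which reached the required sum of reads only through mutant reads. AT1TE62700, among the 14 that fell, reached it only through wild-type reads. Such elements had to differ to be members, so their calls are a description. The counts of 28 and 14 are therefore partly fixed by the choice. The mutant then had 2 libraries, so the spread rested on fewer samples. The 14 that fell included AT3TE64715 (log2 fold change −5.81, SE 0.75, adjusted p = 1e-04), AT2TE77560 (−5.10, SE 0.80, adjusted p = 0.000477), AT2TE57465 (−4.08, SE 0.75, adjusted p = 0.00161), AT1TE75260 (−2.32, SE 0.38, adjusted p = 0.000688) and AT2TE69230 (−1.64, SE 0.22, adjusted p = 0.000137).

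The place of mutant replicate 1 among these calls is a description, since its reads entered the sum that chose the members. Moreover, only 9 of the 28 that rose and 0 of the 14 that fell were called with all 6 libraries. The others were called only once this library was left out, so its place away from the other mutant libraries is partly fixed by that choice. The other 5 libraries alone reached 30 reads for 27 of the 28 members that rose and for 13 of the 14 that fell. For the 14 members that fell without it, mutant replicate 1 lay nearer the wild-type mean than the mean of the other mutant libraries in 12. It was inside the wild-type range in 5, below it in 7 and above it in 2. For the 28 that rose, it lay above all wild-type libraries in 18, inside their range in 8 and below them in 2. It lay nearer the wild-type mean in 17 of these 28. The neighbouring members AT2TE09335 and AT2TE09340, named after their values were seen, were among the 14. AT2TE09335 had 162, 251 and 201 wild-type reads and 477, 64 and 119 mutant reads, so mutant replicate 1 was its highest library. AT2TE09340 had 48, 30 and 43 against 54, 16 and 17 reads. Over the members, log2 CPM (with 0.1 added) correlated at 0.891 between mutant replicates 1 and 2, 0.856 between 1 and 3 and 0.915 between 2 and 3. With the wild-type libraries, mutant replicate 1 correlated at 0.877 to 0.894 and replicate 2 at 0.834 to 0.863. Mutant replicate 3 correlated with them at 0.794 to 0.834, so it lay farthest from wild type by this measure. These correlations are across elements within libraries, which are not independent replicates. In the wild type the 3 pairs ran from 0.898 to 0.916.

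Most genes that silence transposable elements, or regulate their methylation, were not called in the same libraries. Of 45 genes of silencing and DNA methylation tested, AGO9, an Argonaute protein, rose from 74.8 ± 6.02 CPM (SD, n = 3) to 123 ± 7.65 CPM (SD, n = 3), with a log2 fold change of 0.72 (SE 0.10; edgeR, adjusted p = 0.0357). ROS1, a DNA glycosylase that removes methylation, fell from 170.3 ± 17.7 CPM (SD, n = 3) to 13.6 ± 4.71 CPM (SD, n = 3), with a log2 fold change of −3.65 (SE 0.25; edgeR, adjusted p = 0.000997). The call of AGO9 was lost whenever any library other than mutant replicate 1 was left out (adjusted p = 0.0992 to 0.191), while that of ROS1 held in each of these fits. These were 1 gene in each direction, against 0.206% and 0.269% of 20431 genes called in each direction (edgeR, adjusted p under 0.05), and the list's median log2 fold change was 0.05, against 0.01 over all genes. The maintenance methyltransferase MET1 measured 30.02 ± 3.57 CPM in wild type (SD, n = 3) and 33.9 ± 3.10 CPM in the mutant (SD, n = 3), a log2 fold change of 0.17 (SE 0.12; edgeR, adjusted p = 0.549). The chromatin remodeler DDM1 was at 14.4 ± 1.07 and 14.9 ± 1.08 CPM (log2 fold change 0.05, SE 0.12, adjusted p = 0.883). NRPD1, the largest subunit of RNA polymerase IV, was at 7.07 ± 0.566 and 6.90 ± 0.506 CPM (log2 fold change −0.04, SE 0.17, adjusted p = 0.942). MORC6, an ATPase of heterochromatin silencing, was at 10.9 ± 0.365 and 15.01 ± 0.402 CPM (log2 fold change 0.46, SE 0.12, adjusted p = 0.139).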

How the data were processed

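The files hold estimated counts (expected counts) per gene and per element for each total RNA library of 3 wild-type and 3 aly1-2 samples, as the authors deposited them. STAR 2.5.1b, featureCounts of Subread 1.6.1 and TAIR10 are named in the submitters' processing notes. The files' last lines hold fragments of a featureCounts command (options -p, -B and -C, and the SAF format for elements). They do not give how reads with several places were shared or the strand setting of the element counts, so reads of a gene that overlaps an element cannot be told apart. Library totals were sums over 37336 genes. These lines, and 1 line per element file that names a pseudogene, were left out.

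Rounded counts entered edgeR 4.0.16 under R 4.3.3 (quasi-likelihood test) for all elements with a sum of at least 30, with gene totals and TMM factors from the genes (filterByExpr, minimum count 10, minimum total 15). Benjamini-Hochberg adjusted p-values under 0.05 were calls. SE was the fold change divided by the square root of F. Residual degrees of freedom were 4, and the common biological coefficient of variation of the elements was 0.264. DESeq2 1.42.0, other scalings and filters, a replicate block and leave-outs were alternatives. The sum filter was used because filterByExpr keeps 415 of the members. Tests were first tested on simulated data. Replicates of one genotype differed by more than counting noise (chi-square per degree of freedom 1.97 to 5.81).

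The planned test assumed counts, and rounding was added because the values need not be whole. Members and lists were chosen with earlier results of these data known. The rule for named members was up to 10 highest and 10 lowest calls without overlap (9 and 0 were found), the 10 most read, and 3 on each side of the threshold. Other members were named after their values were seen. The rule also named the most read member of each large family and host genes, which were not used here. TAIR10.1 gave gene symbols only. SEP1 and SEP2 share their symbols with other genes and were taken by locus, as was ALY1 (AT5G59950).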

Additional observations from a re-analysis of the deposited data

Results flagged for a closer look

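Each element file also held a line for AT2G13431, a pseudogene on chromosome 2 that is no transposable element identifier and entered no comparison. It had 1, 1 and 0 reads in wild-type replicates 1 to 3 and 6, 6 and 5 reads in the mutant ones, a mutant mean of 5.67 reads above every wild-type library. The gene table gave the same 6 values. No test was made on these few reads.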

How the results depend on the processing

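Of the 9 members called, 5 kept their call in all 13 alternatives (AT3TE45330, AT5TE47750, AT2TE82000, AT3TE57715 and AT5TE48460), and AT3TE89880 also lost its call in a fit on whole-count elements only. AT3TE45330, AT2TE82000 and AT3TE57715 reached the sum of 30 only through their mutant reads, so their kept calls are a description. The leave-out fits used the elements chosen with all 6 libraries. The count of 9 became 24 with no filter, 7 to 13 under DESeq2 and the other scalings, filters and member rules, and 6 to 42 when 1 library was left out, 42 without mutant replicate 1. With a replicate block it was 14, among them AT2TE69230, AT3TE64715, AT5TE40920 and AT1TE42205. All these counts include members that reached the sum of 30 only through a single genotype, so they are partly fixed by the choice. Same-numbered libraries showed little shared deviation from their genotype means (correlations −0.104, −0.0744 and 0.0890). These correlations run across elements and cannot decide whether same-numbered libraries were collected as pairs. Of genes, 97 were called, 553 by DESeq2, 418 with no filter, 20 with the replicate block and 16 to 1610 with 1 library left out. Of silencing genes, 2 were called, 1 with the replicate block, where AGO9 was lost (adjusted p = 0.0985), and 1 to 4 with 1 library left out. Scaling on the elements turned AT5TE78780 (−0.057), AT4TE43840 (−0.0025), AT1TE69295 (−0.083) and AT4TE32800 (−0.0924) negative. With 1 library left out, uncalled values crossed 0 in AT5TE78780 (−0.0351 to 0.108), AT4TE43840 (−0.00102 to 0.188), AT1TE69295 (−0.128 to 0.176), AT1TE35415 (−0.112 to 0.0424), AT1TE42705 (−1.04 to 0.174) and AT4TE32800 (−0.0525 to 0.102). The causes were not tested. The difference in summed member CPM stayed positive (72.2 to 168) with raw gene totals, without the most read member and with 1 library left out. It was not computed with scaling on the elements, which lowered the members' median log2 fold change, so its sign under that scaling was not tested. The alternative on members outside genes was not run, since element coordinates were not used. Members with under 15 reads in a genotype are limited by counting error.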
